A study of Mus musculus with 6 samples.

Results

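Ki-67, the protein of Mki67, and 9 genes whose proteins bind it or work beside it at mitotic chromosomes and in the nucleolus were examined in 4T1 tumors. The 10 genes are Mki67, Nifk, Cdca2, Npm1, Ncl, Ppp1ca, Ppp1cb, Ppp1cc, Bop1 and Kif22. They were chosen for these known roles, with earlier results of these data known, and matched by symbol among the 54146 genes of the count tables. All 10 were among the 19900 genes tested. 4T1 is a mouse mammary carcinoma line. Total RNA was taken from tumors 3 weeks after the cells had been placed in the mammary fat pad. The hosts of both groups were nude mice, whose missing thymus leaves them with few T cells, while natural killer and myeloid cells remain. The 3 wild-type tumors came from wild-type 4T1 cells and the 3 knockout tumors from 4T1 cells labelled Mki67-/-. The labels describe the genotype of the injected cells only, and the way the knockout was made and the number of clones are not given in them, so a difference between clones and an effect of the knockout cannot be told apart in any result here. The labels do not say whether the replicates of a group came from separate animals, and the p-values measure the spread between these samples.

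Ki-67 is made in cycling cells and is largely absent from resting ones, which is why it is used as a marker of proliferation in tumors. In interphase it sits in the nucleolus and on heterochromatin. In mitosis it coats the chromosomes and anchors the perichromosomal layer, a sheath of nucleolar proteins that keeps chromosomes apart from each other and carries nucleolar proteins to the daughter cells. Its forkhead-associated domain binds Nifk. A short motif that it shares with Cdca2 (Repo-Man) recruits protein phosphatase 1 (PP1), with a preference for the catalytic subunit PP1 gamma, encoded by Ppp1cc. Ppp1ca and Ppp1cb encode the other PP1 catalytic subunits. Npm1, Ncl and Bop1 encode nucleolar proteins, and Kif22 encodes a chromokinesin, a motor that sits on chromosome arms.

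Counts assigned to genes summed to 37065778 to 38399826 in the wild-type libraries and to 22081970 to 30772729 in the knockout libraries. Each of the 10 genes had at least 746 counts in every library. Unmapped reads made up 31.2% to 33.9% of the total in the wild-type libraries, 30.8% in knockout replicate 1, and 54.6% and 52.7% in knockout replicates 2 and 3. The outside-exon share, of reads mapped to a single place, was 9.2% to 11.1% in the wild-type libraries. It was 14.2%, 9.9% and 18.9% in knockout replicates 1, 2 and 3. Epithelial markers (Epcam, Krt8, Krt18, Krt19 and Cdh1) were present in every library, with summed levels of 2698 to 2829 CPM (counts scaled to a common library size) in wild-type and 4523 to 4803 CPM in knockout tumors. The summed level of 6 macrophage markers was 4451 to 5209 CPM in wild-type and 687 to 786 CPM in knockout tumors, and that of 6 fibroblast markers was 2063 to 2762 CPM and 3866 to 7799 CPM. Single markers were counted at an adjusted p under 0.05 in edgeR's quasi-likelihood test. Higher in knockout tumors were 4 of 5 epithelial, 5 of 6 fibroblast, 5 of 5 adipocyte and 5 of 5 keratinocyte genes. So were 4 of 5 skeletal muscle, 3 of 5 neutrophil and 1 of 5 endothelial genes, while 6 of 6 macrophage genes and 1 fibroblast gene were lower. Of all genes tested, 17.6% were higher and 18.4% lower. No marker of these lists was at 0 in any library. The part of these shifts in the results below was not tested. Where a fit below is limited to libraries under 40% unmapped, knockout replicate 1 alone stands for its group and is assumed to vary like the wild-type libraries. Where the unmapped share is in the model, knockout replicates 2 and 3 mostly set the slope for that share. The knockout estimate then rests mainly on replicate 1, so that fit is no separate check from the limited one.

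Of the 10 genes, 1 was higher and 2 were lower in knockout tumors by edgeR's quasi-likelihood test at an adjusted p under 0.05. Of all genes tested, 17.6% were higher and 18.4% lower, 36.0% in all, so the share of these 10 genes that passed was near the background. The groups did not overlap for Mki67, Cdca2 and Ppp1cc, 3 of 10, against 50.5% of all genes tested. The median log2 fold change of the 10 genes was -0.09, beside 0.05 for all genes tested.

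The promoter of Mki67 is shown because its transcript had the largest fold change of the 10, and that of Kif22, chosen after the values were seen, because this chromosome-bound protein's gene had group means of 58.3 and 59.4 CPM. RefSeq promoter windows of build GRCm38.p6, from 250 bases before to 50 bases after the start site, were found for 6 of the 10 genes (Mki67, Nifk, Ncl, Ppp1cb, Ppp1cc and Kif22). Sequences are given 5′ to 3′ on the strand of the gene and stop before the annotated exons, and capitals mark matches to TTTGAA, the core of the cell cycle genes homology region (CHR) of many mitotic promoters, and to CCAAT, the binding sequence of NF-Y, on either strand. The stretch of Mki67 is chr7:135716380-135716629, minus strand, and that of Kif22 is chr7:127042472-127042670, minus strand.
Mki67: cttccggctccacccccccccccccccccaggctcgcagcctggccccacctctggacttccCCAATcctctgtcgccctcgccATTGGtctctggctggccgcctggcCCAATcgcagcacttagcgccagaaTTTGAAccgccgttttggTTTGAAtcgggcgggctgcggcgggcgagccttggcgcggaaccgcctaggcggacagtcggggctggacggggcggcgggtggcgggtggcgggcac
Kif22: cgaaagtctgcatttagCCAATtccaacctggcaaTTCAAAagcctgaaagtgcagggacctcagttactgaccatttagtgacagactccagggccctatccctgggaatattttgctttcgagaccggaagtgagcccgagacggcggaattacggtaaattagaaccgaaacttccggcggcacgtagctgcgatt

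The whole window of Mki67 held 2 matches to TTTGAA, at -116 and -98 from the start site, and 3 to CCAAT, at -188, -166 and -141. That of Kif22 held 2 to TTTGAA, at -215 and -17, and 2 to CCAAT, at -233 and -54, of which the match at -17 lies beyond the stretch shown and that at -54 crosses its end, so both are left without capitals. No match overlapped another in these windows. The windows of Nifk and Ncl held 1 match to TTTGAA each and none to CCAAT, and those of Ppp1cb and Ppp1cc held neither. TTTAAA, a variant of the CHR core, occurred once, in Nifk, and the E-box CACGTG, bound by Myc among others, in none of the 6. Of 32851 mouse promoter windows of the same length, 17.9% held TTTGAA, 13.2% TTTAAA, 37.4% CCAAT and 7.15% CACGTG, on either strand. A match is a description of the letters only.

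Mki67 (ENSMUSG00000031004, GRCm38 chromosome 7, 135689784 to 135716361, minus strand) is the gene that the labels name as knocked out. It was at 359.6, 395 and 325 CPM in wild-type replicates 1, 2 and 3 and at 98.7, 117 and 139 CPM in knockout replicates 1, 2 and 3. All 3 knockout libraries were thus lower than all 3 wild-type ones, with no overlap. The labels give a genotype and state no transcript level. The transcript fell by 1.61 on the log2 scale (SE 0.14, 95% interval -1.92 to -1.29, edgeR adjusted p = 6.79e-05), a fold that exceeded in size those of 92.4% of all genes tested. The knockout mean was 32.9% of the wild-type mean, and 9227 reads were still counted in the 3 knockout libraries together. The log2 fold change lay between -1.93 and -1.50 over the 17 alternative fits, and it passed the threshold in each. The count is per gene, so it does not show which exons the remaining reads cover. In these bulk samples, fewer cells of a type and less RNA per cell cannot be told apart, nor can transcript of injected cells and of host cells.

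**Figure D1:**
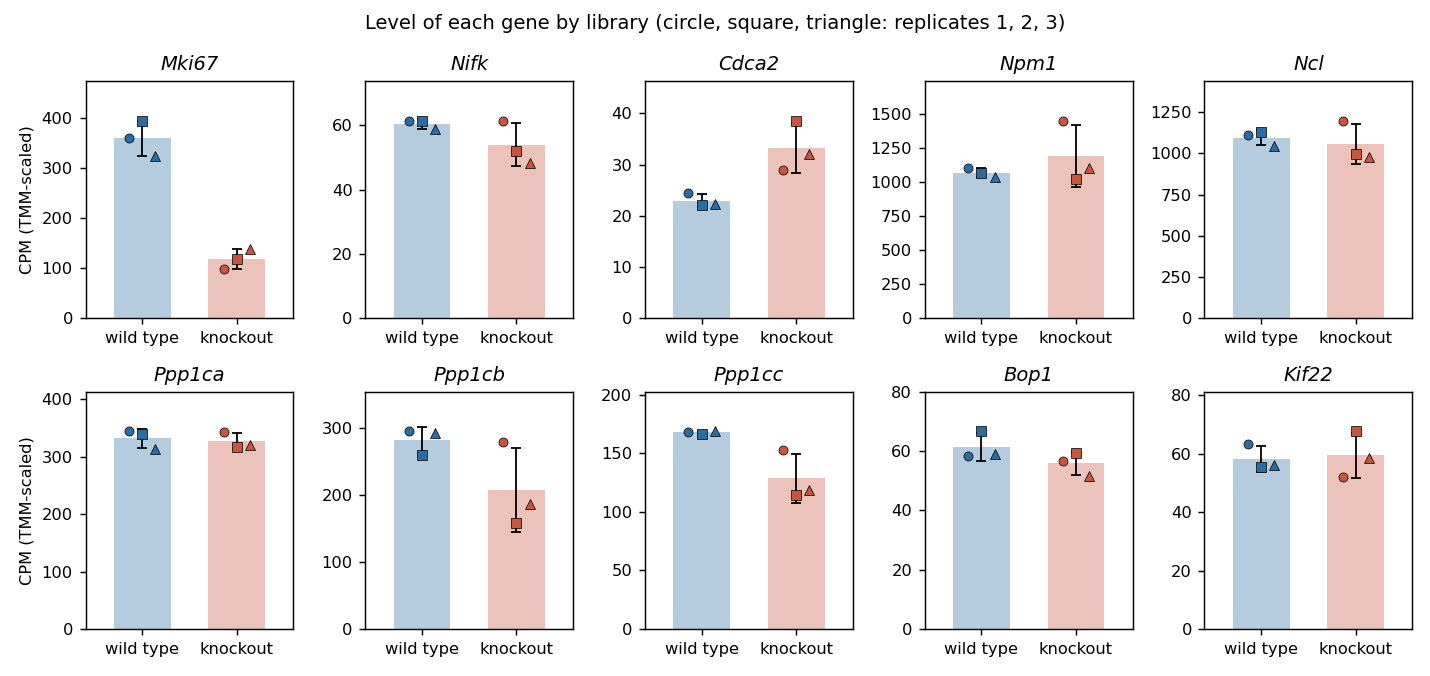
CPM (vertical axis, scaled with TMM factors, starting at 0) of the 10 genes in the 3 wild-type (blue) and 3 knockout (red) libraries; bars are means, error bars are the SD, and the circle, square and triangle are replicates 1, 2 and 3. The knockout libraries of Mki67 sit between 98.7 and 139 CPM, all below the wild-type libraries, and those of Cdca2 lie above the wild-type ones. For Ppp1cb and Ppp1cc, knockout replicates 2 and 3 are the lowest. Knockout replicate 1 lies within the wild-type range for Ppp1cb and below it for Ppp1cc.

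Mki67 was compared with other transcripts that peak late in the cell cycle. Of 16 transcripts of G2 and mitosis, 5 were higher and 0 were lower at the threshold (Aurka, Bub1b, Tpx2, Ube2c and Ccna2), with a median log2 fold change of 0.20, beside 17.6% higher, 18.4% lower and a median of 0.05 over all genes tested. With DESeq2, or at an unadjusted p under 0.05, 0 of the 16 were lower as well, and 1 was lower without knockout replicate 2. Ube2c, the ubiquitin-conjugating enzyme of the anaphase-promoting complex, had a wild-type mean of 97.5 CPM ± 10.5 and a knockout mean of 145 CPM ± 6.83 (SD, n = 3 each; edgeR adjusted p = 0.003). Tpx2, a spindle assembly factor that activates Aurora A, went from 98.1 CPM ± 5.03 to 140.1 CPM ± 12.3 (adjusted p = 0.0039), and Aurka, which encodes that kinase, from 40.4 CPM ± 2.72 to 53.7 CPM ± 2.32 (adjusted p = 0.0086). Each was higher in all 3 knockout libraries than in any wild-type library, although 22.8% of the exonic bases of Ube2c lie in exons of other genes. The call of Aurka was lost without wild-type replicate 2 or 3 (log2 fold change 0.34 in both, against 0.41; adjusted p = 0.0889 and 0.0724), and 2 of 16 were higher without either of these. Tpx2 had a log2 fold change of 0.51, and of 0.31 with knockout replicate 1 alone against the wild type. Of Top2a, topoisomerase II alpha, which like Mki67 is widely used to mark cycling cells, the mean was 373 (SD 18.3) in wild-type and 329 (SD 21.7) in knockout tumors, in CPM. The groups of Top2a just missed overlapping, with knockout libraries at most at 351.5 CPM and wild-type ones at least at 352.4 CPM. Its log2 fold change of -0.18 missed the threshold (adjusted p = 0.151) and passed when knockout replicate 2 was dropped (-0.28, adjusted p = 0.0403), and it was -0.34 with knockout replicate 1 alone against the wild type. Bub1b, Ccna2 and Top2a are named here after their values were seen.

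The log2 ratio of Mki67 to the median of these 16 genes was 2.01, 2.30 and 2.08 in wild-type replicates 1, 2 and 3. It was 0.13, 0.32 and 0.61 in knockout replicates 1, 2 and 3, a shift of -1.78 between the group means. No knockout library came near the wild-type range. Against single genes of its own set, the shift was -2.14 to Cdca2, -1.64 to Kif22, -1.48 to Bop1 and -1.44 to Nifk, and -1.13 to Ppp1cb. The ratios are of CPM, so their shift between groups can be read, but not their size. No test was made on them.

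**Figure D2:**
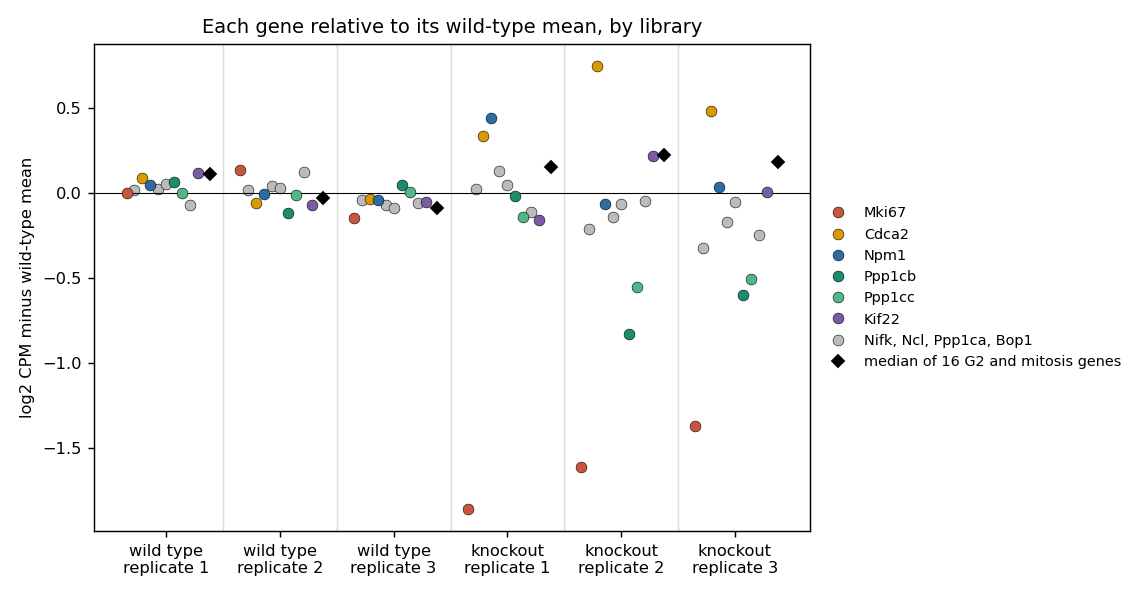
log2 CPM of each gene minus its own wild-type mean (vertical axis) in each of the 6 libraries, with the median of 16 G2 and mitosis transcripts as black diamonds. Mki67 lies 1.37 to 1.86 below its wild-type mean in the knockout libraries, where the G2 and mitosis median lies 0.16 to 0.23 above its own.

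Cdca2 (ENSMUSG00000048922, chromosome 14, 67676331 to 67715841, minus strand) encodes Repo-Man, which brings PP1 to chromatin at anaphase, where the phosphatase removes mitotic marks from histone H3. It was at 24.4, 22.1 and 22.4 CPM in the wild-type replicates and at 29.0, 38.6 and 32.1 CPM in the knockout replicates. All knockout libraries were above all wild-type ones, and replicate 1 was the nearest. The transcript rose by 0.53 on the log2 scale (SE 0.12, 95% interval 0.25 to 0.82, edgeR adjusted p = 0.0111), opposite in sign to Mki67. The call was lost without wild-type replicate 1, 2 or 3 (adjusted p = 0.0557, 0.0769 and 0.0631), with log2 fold changes of 0.56, 0.48 and 0.46. Adding the unmapped share to the model gave 0.34 (adjusted p = 0.0694), and knockout replicate 1 alone against the 3 wild-type libraries gave 0.27. The log2 fold change was positive in all 17 alternatives.

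Kif22 (ENSMUSG00000030677, chromosome 7, 127027729 to 127042471, minus strand), which pushes chromosome arms towards the spindle equator, was at 63.3, 55.4 and 56.1 CPM in the wild-type replicates. It was at 52.1, 67.7 and 58.4 CPM in the knockout replicates, and the groups overlapped, with the highest and the lowest library both in the knockout group. The log2 fold change was 0.03 (95% interval -0.23 to 0.29, adjusted p = 0.865).

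The other proteins of mitotic chromosomes, with the HP1 proteins, gave 4 higher and 1 lower of 13 and a median log2 fold change of 0.18, beside 17.6%, 18.4% and 0.05 over all genes tested. Birc5, survivin, a subunit of the chromosomal passenger complex, had a wild-type mean of 66.5 CPM ± 7.42 and a knockout mean of 100.1 CPM ± 5.40 (SD, n = 3 each; edgeR adjusted p = 0.0029). Incenp, the scaffold of that complex, went from 87.4 CPM ± 3.73 to 111 CPM ± 9.17 (adjusted p = 0.0196), and Kif4, another chromokinesin, from 30.2 CPM ± 1.09 to 40.03 CPM ± 4.36 (adjusted p = 0.0169), though 15.1% of the exonic bases of Kif4 lie in exons of other genes. The calls of Kif4 and Incenp were lost without any single wild-type replicate (log2 fold changes of 0.33 to 0.41 against 0.41, and of 0.25 to 0.35 against 0.34; adjusted p = 0.0931 to 0.110 and 0.0936 to 0.142), without knockout replicate 3 (0.0509 and 0.0546) and, for Incenp, without knockout replicate 2 (0.0587). With the unmapped share in the model they were 0.27 (adjusted p = 0.0947) and 0.25 (adjusted p = 0.0833), and with knockout replicate 1 alone 0.20 and 0.18. Of the 13, 2 passed as higher when wild-type replicate 1 was left out, and 1 when any of wild-type replicates 2 and 3 or knockout replicate 3 was. Among direct partners of Ki-67, named for that role after their values were seen, Kif15, a spindle motor that binds its forkhead-associated domain, was at 42.9, 35.7 and 37.9 CPM in wild-type and 51.5, 46.3 and 52.6 CPM in knockout replicates (adjusted p = 0.0234). This call was lost without wild-type replicate 2 or 3 or knockout replicate 3 (log2 fold changes of 0.28, 0.30 and 0.33 against 0.37; adjusted p = 0.149, 0.161 and 0.0829), and with the outside-exon share in the model (0.29, adjusted p = 0.142). Cbx5, the HP1 alpha gene, was at 168, 174 and 174 CPM and at 152, 136 and 134 CPM (adjusted p = 0.0291). The groups of both genes did not overlap, but the call of Cbx5, the 1 lower in this list, was lost without any single wild-type replicate (log2 fold changes of -0.34 to -0.31 against -0.29; adjusted p = 0.0800 to 0.102) and without knockout replicate 3 (-0.26, 0.0928). The stricter filter (-0.21), the stranded column (-0.20), the unmapped share (-0.19) and the outside-exon share (-0.28) also ended it, with adjusted p of 0.0661, 0.117, 0.112 and 0.128. Cbx1 and Cbx3, the other HP1 genes of this list, also named after their values were seen, did not pass. Their log2 fold changes were -0.28 and 0.03 (edgeR adjusted p = 0.102 and 0.871), with overlapping groups.

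Of the 3 catalytic subunits of PP1, only Ppp1cc passed the threshold. The log2 fold changes of Ppp1cc (-0.39) and Ppp1cb (-0.44) were near each other, and that of Ppp1ca was -0.02. Their 95% intervals overlapped, and no test compared the 3 genes. Ppp1cc (ENSMUSG00000004455, chromosome 5, 122158278 to 122175273, plus strand), whose product PP1 gamma is the isoform that Ki-67 and Repo-Man prefer, was at 168, 167 and 169 CPM in the wild-type replicates and at 152, 115 and 119 CPM in the knockout replicates. The wild-type libraries were nearly level, and all knockout libraries lay below them, replicate 1 the least. The transcript fell by 0.39 on the log2 scale (SE 0.12, 95% interval -0.65 to -0.12, edgeR adjusted p = 0.0324). The call was lost in 9 of the 17 alternatives, among them each wild-type replicate left out (-0.41, -0.42 and -0.43; adjusted p = 0.0813, 0.0774 and 0.0880), knockout replicate 3 left out (-0.34, adjusted p = 0.103), the unmapped share in the model (log2 fold change -0.17, adjusted p = 0.147) and only libraries under 40% unmapped, which is knockout replicate 1 alone (-0.20).

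Ppp1cb (ENSMUSG00000014956, chromosome 5, 32458843 to 32517433, plus strand), whose product PP1 beta also works in myosin phosphatase, was at 295, 259.7 and 292 CPM in the wild-type replicates and at 278, 159 and 186 CPM in the knockout replicates. Knockout replicate 1 lay within the wild-type range, while replicates 2 and 3, the libraries with 54.6% and 52.7% of reads unmapped, lay below it. The log2 fold change of -0.44 did not pass (SE 0.19, 95% interval -0.87 to -0.01, edgeR adjusted p = 0.0986). It did without knockout replicate 1 (-0.72, adjusted p = 0.000781) and when genes of low counts were kept (-0.54, adjusted p = 0.0017). With replicate 1 alone against the wild type it was -0.08, and with the unmapped share in the model -0.07 (adjusted p = 0.657). Exons of another gene, Gm43312, cover part of its exons, and 17.5% of its exonic bases are shared.

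Ppp1ca (ENSMUSG00000040385, chromosome 19, 4192065 to 4195420, plus strand), the gene of PP1 alpha, was at 344, 339 and 313 CPM in the wild-type replicates and at 344, 317 and 320.2 CPM in the knockout replicates. The groups overlapped fully, with a log2 fold change of -0.02 (95% interval -0.22 to 0.18, adjusted p = 0.859), and 16.5% of its exonic bases lie in exons of other genes, among them Rad9a on the opposite strand. Per length, Ppp1ca made up 63.7% ± 1.54 of the summed level of the 3 genes in wild-type and 69.9% ± 3.34 in knockout tumors (SD, n = 3 each). The share of Ppp1cc was 23.7% ± 0.80 and 20.1% ± 1.30, and that of Ppp1cb was 12.5% ± 0.94 and 10.1% ± 2.06. In knockout replicate 1 the share of Ppp1ca was 66.1%, beside 72.4% and 71.1% in replicates 2 and 3 and 62.0% to 65.0% in wild-type tumors. No test was made on these shares.

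Of 18 genes of PP1 regulatory subunits, 2 were higher and 3 were lower, with a median log2 fold change of -0.02, again beside 17.6%, 18.4% and 0.05 over all genes. Ppp1r13l, which encodes iASPP, an inhibitor of p53, had a wild-type mean of 56.2 CPM ± 3.86 and a knockout mean of 104 CPM ± 23.8 (SD, n = 3 each; edgeR adjusted p = 0.0032), with all knockout libraries (81.5, 129 and 101 CPM) above the wild-type ones. Its log2 fold change was 0.88, and it was 0.57 with the unmapped share in the model (adjusted p = 0.0151) and 0.47 with knockout replicate 1 alone. Ppp1r15a, the stress-induced subunit GADD34 that directs PP1 to the translation factor eIF2 alpha, went from 23.5 CPM ± 1.40 to 34.1 CPM ± 4.94 (adjusted p = 0.0112), a call lost without any single wild-type replicate (log2 fold changes of 0.43 to 0.56 against 0.53; 0.0559 to 0.0692), when 1 of the 18 was higher. The unmapped share in the model also ended it (0.32, adjusted p = 0.0678), and with knockout replicate 1 alone it was 0.24. Ppp1r12a, the myosin phosphatase targeting subunit, went from 107 CPM ± 6.50 to 80.7 CPM ± 1.44 (adjusted p = 0.0063). Of the 18, 1 was lower when wild-type replicate 1 or 2 or knockout replicate 3 was left out, and 6 when knockout replicate 1 was.

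**Figure D3:**
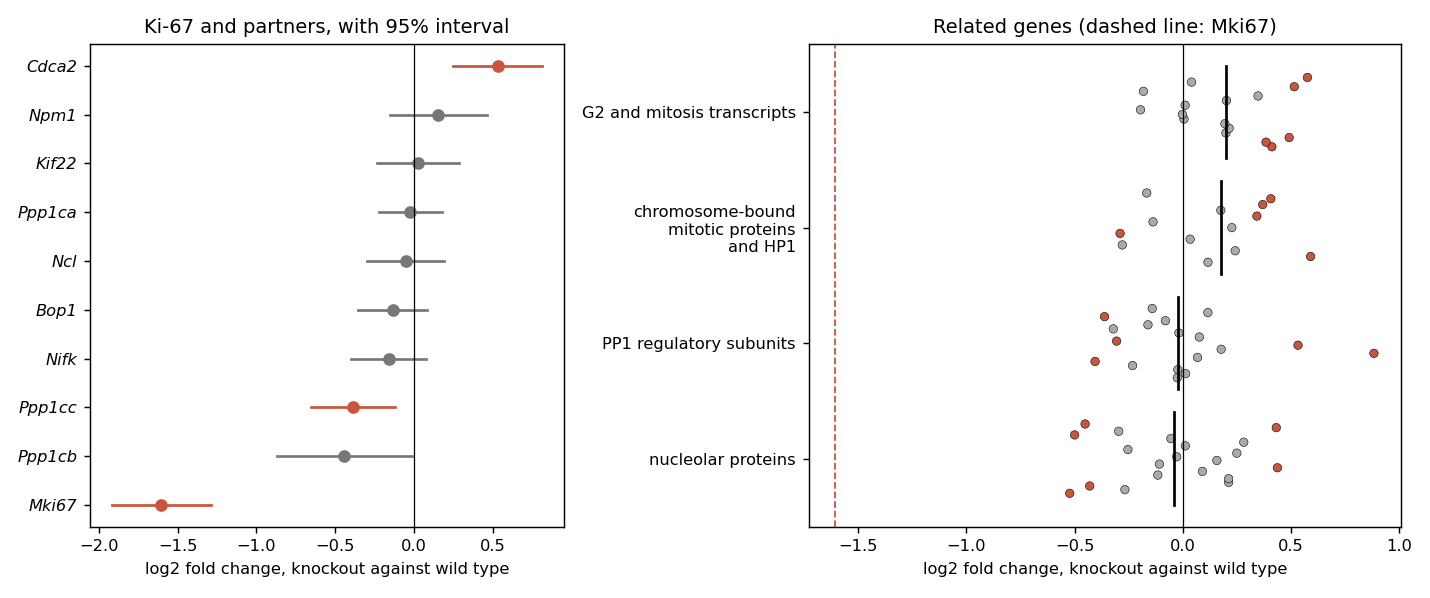
Left, log2 fold change of knockout against wild type (horizontal axis) with its 95% interval for the 10 genes, in red where the adjusted p was under 0.05. Right, the same value for the 67 genes of the 4 lists of related genes, with a black line at each list's median and the dashed line at the Mki67 value of -1.61, below which none of the 67 lies.

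The nucleolar partners showed no difference past the threshold. Nifk (ENSMUSG00000026377, chromosome 1, 118321839 to 118333822, plus strand), an RNA-binding nucleolar protein that, once phosphorylated, binds the forkhead-associated domain of Ki-67, was at 61.2, 61.3 and 58.8 CPM in the wild-type replicates and at 61.5, 52.1 and 48.4 CPM in the knockout replicates. Knockout replicate 1 was at the top of the range and replicates 2 and 3 below all wild-type libraries. The log2 fold change was -0.16 (95% interval -0.40 to 0.08, edgeR adjusted p = 0.255), and it passed only without knockout replicate 1 (-0.27, adjusted p = 0.0255). Bop1 (ENSMUSG00000022557, chromosome 15, 76452989 to 76477277, minus strand), a subunit of the PeBoW complex for maturation of the large ribosomal subunit, was at 58.4, 66.7 and 58.9 CPM and at 56.7, 59.3 and 51.6 CPM, overlapping groups with a log2 fold change of -0.13 (95% interval -0.35 to 0.08, adjusted p = 0.302).

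Npm1 (ENSMUSG00000057113, chromosome 11, 33152287 to 33163206, minus strand), nucleophosmin, a histone and ribosome chaperone of the granular nucleolus, was at 1104, 1063 and 1038 CPM in the wild-type replicates. It was at 1449, 1023 and 1098 CPM in the knockout replicates, so that replicate 1 alone stood above the wild-type range. The log2 fold change was 0.16 (95% interval -0.15 to 0.47, adjusted p = 0.394). It passed when the model held the unmapped share (0.40, adjusted p = 0.0129) and was -0.02 without knockout replicate 1. With that replicate alone against the wild type it was 0.38. Ncl (ENSMUSG00000026234, chromosome 1, 86344719 to 86359400, minus strand), nucleolin, which acts in ribosomal RNA transcription and processing, was at 1114, 1128 and 1047 CPM and at 1199, 996 and 976 CPM, again with knockout replicate 1 the highest and replicates 2 and 3 below the wild-type range. Its log2 fold change was -0.05 (95% interval -0.30 to 0.19, adjusted p = 0.726).

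Of 20 further nucleolar proteins, 2 were higher and 4 lower, with a median log2 fold change of -0.04, against the same shares and median over all genes. Ddx21, an RNA helicase of ribosomal RNA synthesis, had a wild-type mean of 169 CPM ± 14.5 and a knockout mean of 118 CPM ± 8.66 (SD, n = 3 each; edgeR adjusted p = 0.0044). Nop56, a core protein of box C/D small nucleolar particles, went from 125 CPM ± 2.86 to 169 CPM ± 12.7 (adjusted p = 0.0058), a call lost without any single wild-type replicate (log2 fold changes of 0.37 to 0.43 against 0.44; adjusted p = 0.0519 to 0.0564), when 0 of the 20 were higher. Surf6, a nucleolar matrix protein, went from 32.3 CPM ± 0.60 to 22.8 CPM ± 2.90 (adjusted p = 0.0094). Its log2 fold change of -0.50 was -0.33 with the unmapped share in the model, and the outside-exon share ended the call (-0.49, adjusted p = 0.0542). The partners of Bop1 in PeBoW, named for that role after their values were seen, gave different results. Pes1 was at 99.4 CPM ± 3.26 and 97.4 CPM ± 2.43 (adjusted p = 0.794), while Wdr12 fell from 41.1 CPM ± 2.05 to 30.01 CPM ± 5.56 (adjusted p = 0.0293), a call lost without any single wild-type replicate (log2 fold changes of -0.54 to -0.46 against -0.45; 0.0594 to 0.0905) or knockout replicate 3 (-0.38, 0.0942). With the unmapped share in the model Wdr12 was at -0.22 (adjusted p = 0.167), and with knockout replicate 1 alone at -0.24. The number lower was 2 when any 1 of these 4 libraries was left out and 8 without knockout replicate 1.

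Over all 4 lists, 13 of 67 genes were higher and 8 lower, beside 17.6% and 18.4% of all genes tested. Leaving out any single wild-type replicate gave 4 to 7 higher and 3 or 4 lower. Leaving out knockout replicate 3 gave 3 lower, leaving out knockout replicate 2 gave 11, and leaving out knockout replicate 1 gave 16. Calls over all genes moved the same way, from 7158 to between 4078 and 4479 without a wild-type replicate and 5118 without knockout replicate 3. They numbered 9301 without knockout replicate 2 and 9108 without knockout replicate 1. When genes of low counts were kept, where the median log2 fold change of all genes was 0.26, the calls of Aurka, Bub1b, Kif4, Incenp, Kif15 and Nop56 were lost (adjusted p = 0.0597 to 0.216). The SE was larger in that fit as well. Incenp, for example, was at 0.26 (SE 0.14) against 0.34 (SE 0.09), and Nop56 at 0.36 (SE 0.14) against 0.44 (SE 0.09). Why these calls were lost was not tested.

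Per length, as CPM per kb of exon, the order in wild-type tumors ran from Npm1 (401 ± 12.6) over Ppp1ca (132 ± 6.71), Ncl (108 ± 4.27), Ppp1cc (49.1 ± 0.29), Mki67 (35.7 ± 3.47), Nifk (30.8 ± 0.73), Ppp1cb (25.8 ± 1.78), Bop1 (20.7 ± 1.58) and Kif22 (11.9 ± 0.89) to Cdca2 (4.02 ± 0.22; SD, n = 3 each). No gene's wild-type libraries overlapped those of its neighbor in this order. In knockout tumors Mki67 was at 11.8 ± 1.98 CPM per kb, the 9th of the 10 in place of the 5th, and its libraries overlapped those of Kif22. Nifk and Ppp1cb, and Ppp1cb and Bop1, overlapped there too. Among all genes tested, the per-length level of Mki67 stood at the 92.0th percentile in wild-type and the 76.8th in knockout tumors, while that of Cdca2 stood at the 54.8th and the 62.8th. With the length of the longest transcript in place of all exons, Ppp1cb was at 47.3 CPM per kb in wild-type tumors and took the 5th place, above Mki67.

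**Figure D4:**
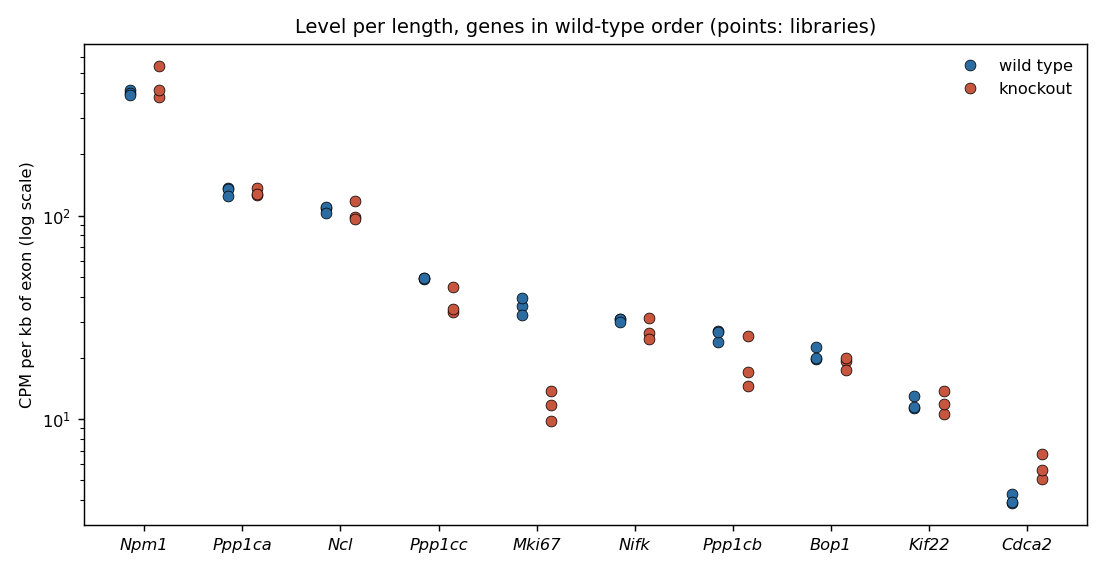
CPM per kb of exon (vertical axis, log scale) of the 10 genes, ordered by the wild-type mean, with 1 point per library (blue wild type, red knockout). Mki67 goes from 5th to 9th place between the groups, and Npm1, Ppp1ca, Ncl and Ppp1cc keep the 4 highest places.

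The spread between libraries was wider in the knockout group for 8 of the 10 genes. The share of all genes tested with a wider spread there was not counted, so this cannot be read as a trait of these genes. The coefficient of variation of CPM was 0.60% in wild-type and 16.2% in knockout tumors for Ppp1cc, 6.88% and 30.2% for Ppp1cb, and 3.14% and 19.1% for Npm1. It was 9.71% and 16.9% for Mki67. Ppp1ca (5.09% and 4.44%) and Bop1 (7.64% and 7.02%) were the exceptions. Knockout replicates 2 and 3 shared the low levels of Nifk, Ppp1cb and Ppp1cc, and they also shared the high unmapped share.

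The pattern over the 6 libraries was compared with that of Mki67 by the root mean square difference of centred log2 CPM, among 10055 genes with a mean of at least 10 CPM. The values were not scaled, so this difference mostly follows the gap in log2 fold change to Mki67 (-1.61) and is not a separate result. The 5 nearest genes were Ms4a7, Loxl4, Fgfr2, Trim2 and Sema5a, at differences of 0.07 to 0.10 and log2 fold changes of -1.73 to -1.48. Ms4a7, a membrane protein gene known from macrophages, was at 43.1, 52.3 and 41.6 CPM in wild-type and 11.9, 14.8 and 15.7 CPM in knockout replicates. Loxl4, a lysyl oxidase, went from 73.9 CPM ± 8.61 to 25.1 CPM ± 2.73, and Fgfr2, a fibroblast growth factor receptor, from 109 CPM ± 14.2 to 32.8 CPM ± 5.30 (SD, n = 3 each). Trim2, a ubiquitin ligase, went from 25.2 CPM ± 1.73 to 7.90 CPM ± 0.64, and Sema5a, a semaphorin, from 37.4 CPM ± 2.25 to 13.4 CPM ± 2.04. None of the other 9 genes of the set was close, which follows from their fold changes given above. Ppp1cc was the nearest of them, at a difference of 0.67 and rank 2583, and Cdca2 the farthest, at 1.08 and rank 8903.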

How the data were processed

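RNA from 3 wild-type and 3 knockout tumors was sequenced. The deposited tables hold raw counts per gene, with 4 summary rows that name no gene and were left out of library sizes and tests (unmapped 30.8% to 54.6% and multimapping 3.12% to 4.39% of the total). The submitters' processing notes list FastQC, STAR 2.6.0c, DESeq2 and GRCm38. The layout is that of STAR's gene counts, where reads that map to several places or to exons of several genes are not counted, so genes with near-identical copies are counted in part. The first stranded column held 50.1% to 50.2% of stranded counts, and the unstranded column was used, in which antisense reads cannot be separated.

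Identifiers were matched to GENCODE M21 (54079 of 54146). The test was edgeR's quasi-likelihood F test (version 4.0.16, R 4.3.3; filterByExpr filter, TMM scaling), with Benjamini-Hochberg adjustment over 19900 genes and a threshold of 0.05. The SE was derived from the fold change and F. CPM used TMM factors, and log2 CPM a prior count of 2. Alternatives were DESeq2 1.42.0, other scalings, filters and columns, a robust fit, covariates, a replicate block and left-out libraries. The fit was tested on simulated data. The genes and lists were chosen with earlier results of these data known. Named genes are the 10, the 3 smallest p in each of 4 lists, and the 5 most like Mki67; others are marked as named after their values were seen. Names that share a member's symbol with the ending -ps were also searched, and Kif22-ps had 1 count in all. Copies of a member under other names were not searched, so reads lost to them are not known.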

Additional observations from a re-analysis of the deposited data

How the results depend on the processing

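The fall of Mki67 kept its direction and its side of the threshold in all 17 alternative fits. The number of the 10 genes higher was 0 to 1 with each replicate left out in turn. The number lower was 1 to 4 with each replicate left out and 1 with the stricter filter (at least 1 CPM in 5 libraries), the stranded column, either covariate or only libraries under 40% unmapped. Of the 67 related genes, 4 to 15 were higher and 3 to 16 lower with each replicate left out. The number higher was 6 without a filter and 20 with the stricter filter. The number lower was 5 with the stricter filter, 3 with the unmapped share in the model, 2 with the outside-exon share in it, and 13 with only libraries under 40% unmapped, a fit with 1 knockout library. The cause of these shifts was not tested. Values near 0 that did not pass changed sign. Npm1 ranged from -0.0197 (without KO replicate 1) to 0.210 with each replicate left out. Ncl was at 0.00353 with library totals alone, 0.0230 with the stricter filter, 0.0254 with the stranded column, 0.0996 with the unmapped share and 0.0651 with only libraries under 40% unmapped, and Ppp1ca at 0.0352, 0.0537, 0.0734 and 0.0335 under the first 4 of these. Pes1 was at 0.0284 and 0.0463 under the first 2. Kif22 was at -0.0500 with no filter, -0.153 with the unmapped share, -0.224 with only libraries under 40% unmapped, and -0.123 to 0.107 with each replicate left out. With the replicate number as a block, Mki67 was at -1.61, and 1 of the 10 genes was higher and 3 lower, Ppp1cb among them (-0.48, adjusted p = 0.0267). Of the 67, 13 were higher and 7 lower, and Cbx5 lost its call (-0.29, adjusted p = 0.0502). Same-numbered libraries did not deviate together (correlations 0.05, -0.21 and -0.24), and libraries of unlike number had correlations of -0.10 to 0.25. The labels do not say whether the numbers pair the samples, and so few libraries cannot settle it.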
